A study of Homo sapiens with 6 samples.

Results

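The Notch pathway genes described here are 3 ligands (JAG1, JAG2 and DLL1), 3 receptors (NOTCH1, NOTCH2 and NOTCH3), and 4 genes read as pathway output (HES1, HEY1, NRARP and ATOH1). They make up 10 of the 19223 gene symbols in the deposited table. Together they have 14 of its 45006 transcripts. RNA was sequenced from LoVo, an established human colorectal adenocarcinoma cell line, in 3 Control cultures given vehicle and 3 cultures given 2.5 μM DCC-2036 (rebastinib), a small-molecule tyrosine kinase inhibitor. The labels give 48 h of treatment for both groups, whereas a figure legend of the study gives a shorter time, and they name a DMEM-based medium where the study's methods name another. The comparison asks how the levels of Notch transcripts differ between LoVo cells with and without the inhibitor.

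Notch is a signalling route between touching cells. A ligand of the Jagged or Delta-like family on one cell binds a Notch receptor on its neighbour, the receptor is cut by an ADAM protease and then by γ-secretase, and the freed intracellular domain enters the nucleus, where it joins the DNA-binding protein RBPJ and a Mastermind coactivator to switch on genes such as HES1. In the intestinal epithelium the pathway is known for keeping progenitor cells dividing and for directing cells to the absorptive fate. HES1 represses ATOH1, the transcription factor that starts the secretory programme of goblet, Paneth and enteroendocrine cells.

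Each value is the normalized signal of 1 transcript in 1 library as deposited by the authors, who do not state its unit in the sources used here, and each gene is given by its most abundant transcript, judged by the mean of all 6 libraries. The number of reads behind a value is unknown, since reads could not be recovered from the values. Values above 0 but under 0.1 were given for 2061, 2345 and 2134 transcripts in the DCC-2036 libraries and for 0 in each Control library, so zeros cannot be compared directly between the groups. The DCC-2036 libraries lay farther apart from each other than the Control libraries. The median SD of log2 values across all tested genes was 0.23 in the DCC-2036 group and 0.10 in the Control group, and the DCC-2036 replicates 1 and 3 were the most distant pair, with a median absolute log2 difference of 0.39. Nothing in the labels says that replicates came from separate experiments, so the p-values measure only the spread between these samples, which may be technical. These are bulk libraries, in which fewer cells of a type and less RNA per cell cannot be told apart.

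Markers of colorectal epithelium were checked against the cell line's label. Of 12 such genes, 7 had a mean of at least 10, and KRT8, a keratin of simple epithelia, had the highest values. CDX2, an intestinal transcription factor, ranged from 213 to 365 over the 6 libraries. CDX1 was listed at 0 in all 6, and the intestinal genes VIL1, CDH17, LGALS4 and GPA33 had means of 2.03, 1.93, 2.98 and 2.24, so the label rested on keratins, EPCAM, CDH1 and CDX2 more than on markers of mature enterocytes. The summed level of the 12 markers was 104485, 108197 and 115006 with vehicle against 148350, 163494 and 188453 with DCC-2036. KRT8 carried most of that rise, from between 55600 and 64130 in Control to between 92920 and 125400 in DCC-2036. CDH1, EPCAM and KRT18 were higher in every DCC-2036 library as well, whereas KRT20 fell from 64.1, 43.6 and 51.5 to 17.7, 28.0 and 24.6, and CDX2 and KRT19 overlapped between the groups. The part of the sum in the results on Notch genes was not tested.

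Markers of other cell types were mostly low, with CD68 and COL1A1 as exceptions. The leukocyte marker PTPRC was at 0 in all 6 libraries, and CD68 (205 to 280), a lysosomal protein that is not restricted to leukocytes, was the only 1 of the 6 leukocyte genes with a mean of at least 10. The summed leukocyte level was 230.2, 269.8 and 261.4 under vehicle and 215.8, 246.7 and 286.8 under DCC-2036. Among 5 endothelial genes only VWF reached a mean of 10, with sums of 14.2, 10.5 and 18.6 in Control culture, and 42.3, 15.4 and 21.4 in treated culture. Of 6 fibroblast genes 2 reached it, COL1A1 and COL3A1, and the sums were 439.9, 412.2 and 369.6 with vehicle against 515.9, 451.9 and 552.6 with DCC-2036.

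Transcripts of JAG1, NOTCH2, DLL1 and HES1 were higher in the cells given DCC-2036. NOTCH1 and NOTCH3 had lower values in every DCC-2036 library than in any Control library, but missed the threshold. JAG2, HEY1 and NRARP overlapped between the groups, and ATOH1 was too low to test. The test was limma on log2(value + 1) over the 12725 genes that reached 10 in 3 or more libraries, with Benjamini-Hochberg adjustment and a call at an adjusted p under 0.01, and fold changes on this scale understate differences of low genes. Of the 9 tested members, 4 (44.4%) were called higher, against 19.2% of all tested genes, and 0 were called lower, against 22.7%. Only 1 was called higher without Control replicate 1, 2 or 3, without DCC-2036 replicate 2, with the replicate number as a block or where a log2 fold change of at least 1 was also asked, and 2 were with equal totals or with no filter on low values. Calls in the higher direction over all genes fell too, from 2442 to 1054, 1000 and 992 without Control replicates 1, 2 and 3, to 928 without DCC-2036 replicate 2, to 1202 with the block, to 944 with the limit on the fold change, to 1669 with equal totals and to 1749 with no filter. At an unadjusted p under 0.05 limma gave 4 higher and 2 lower, against 30.5% and 36.1% of all tested genes, and with a mean-variance trend it called 3 higher and 2 lower, beside 2880 and 3307 of all genes. Values of the groups did not overlap for 4 members that were higher and 2 that were lower with DCC-2036, while the shares over all tested genes were 32.9% and 38.1%. With each transcript kept as a feature, 5 of 13 tested member transcripts were called higher and 0 lower by limma, against 19.7% and 22.4% of all tested transcripts, and at an unadjusted p under 0.05 these were 6 and 2, against 30.8% and 35.6%. The median log2 fold change was 0.62 over the 9 members and -0.09 over all tested genes. No member passed the filter through 1 group alone.

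**Figure D1:**
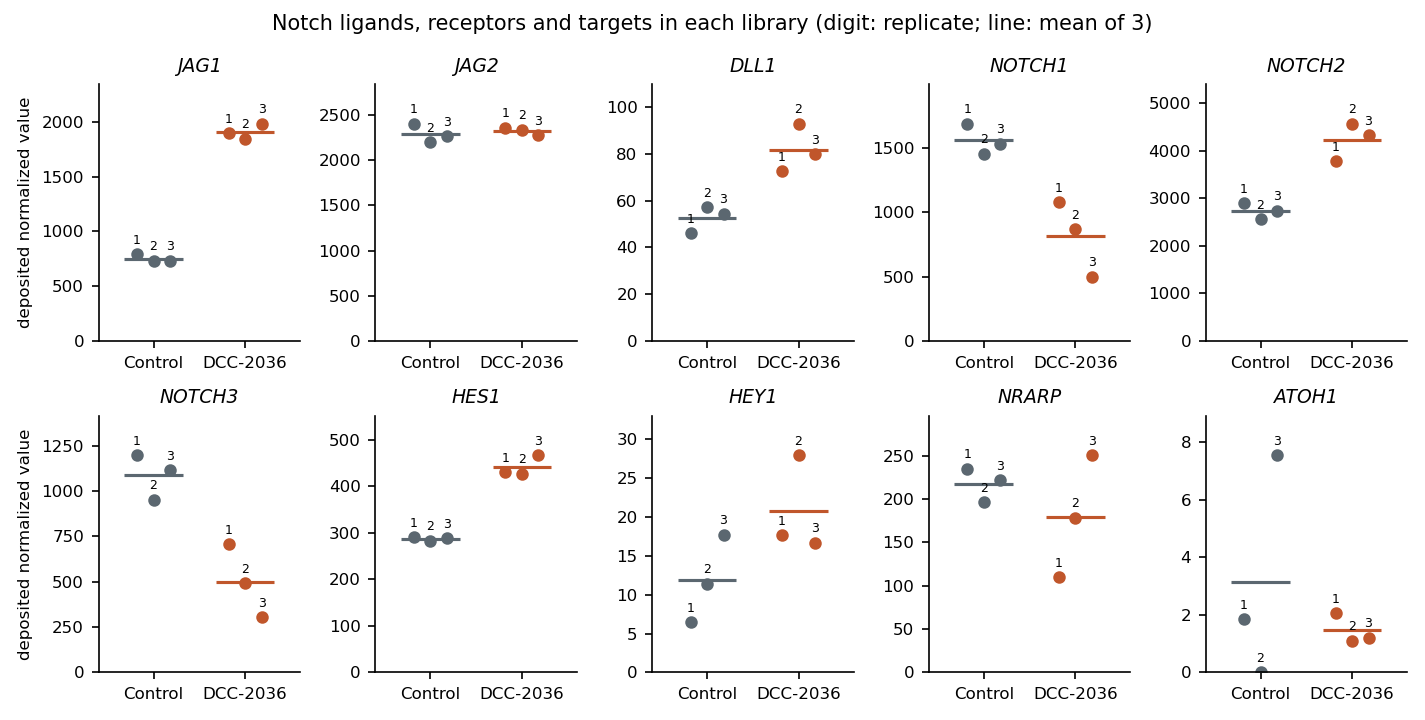
Deposited normalized value (vertical axis, linear from 0) of the leading transcript of each of the 10 genes in the 3 Control and 3 DCC-2036 libraries, with the replicate number above each point and a line at the group mean. The groups are separate for JAG1, DLL1, NOTCH1, NOTCH2, NOTCH3 and HES1, and overlap for JAG2, HEY1, NRARP and ATOH1.

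**Figure D2:**
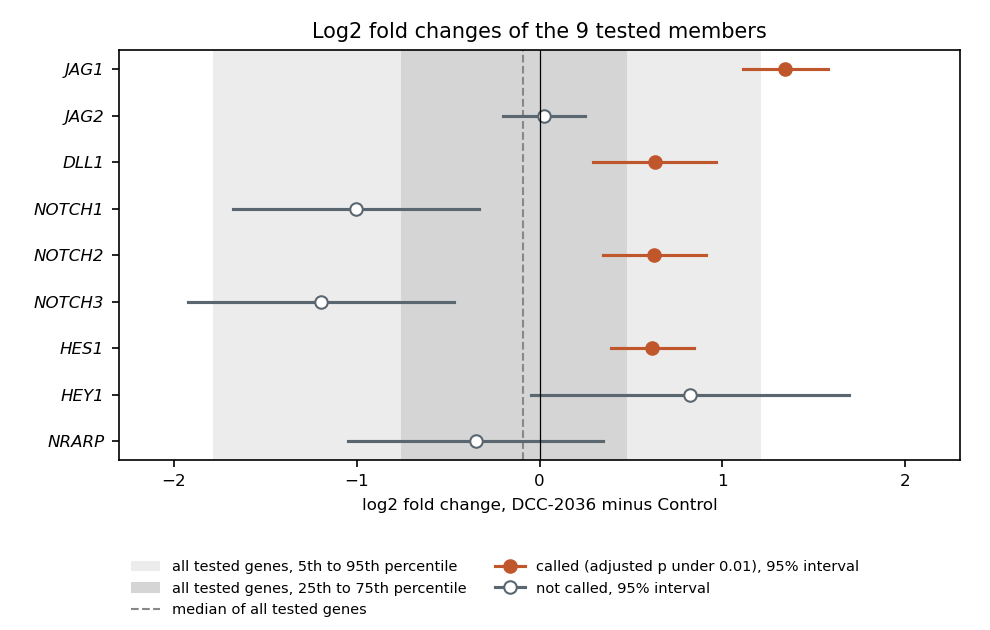
Log2 fold change of the 9 tested members (horizontal axis, DCC-2036 minus Control) with 95% intervals from limma, filled where called, over bands that hold the middle of all 12725 tested genes. JAG1 at 1.34 lies above the 95th percentile of all tested genes, 1.21, while NOTCH3 at -1.20 lies inside the band that starts at -1.79.

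JAG1, a Jagged ligand at chr20:10637684-10673999 on the minus strand (GRCh38, GENCODE 29), gave 791, 730.4 and 732 under vehicle and 1895, 1845 and 1983 under DCC-2036. Both groups were tight, and the lowest DCC-2036 library was more than double the highest Control library. The group means were 751 ± 34.5 and 1908 ± 69.7 (SD, n = 3 each), a ratio of 2.54. The log2 fold change was 1.34 with a standard error of 0.10 and an adjusted p of 0.000257 in limma, and it ranked 458 from the highest and 219 by p among the 12725 genes. JAG1 was the only member with a log2 fold change over 1 among the called, and it was called in each of 19 other processing settings, with a log2 fold change between 1.15 and 1.43 and an adjusted p from 2.01e-05 to 0.00422. An antisense gene, AL050403.2, overlaps JAG1. Whether counting used the strand is not given in the sources used here, so reads from the shared part cannot be told apart.

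By the distance between profiles of log2(value + 1) over the 6 libraries, each set against its Control mean, the 3 tested genes outside the lists most like JAG1 were LAMB2, MLEC and SPHAR. Their distances were 0.16, 0.18 and 0.18 log2 units. LAMB2 encodes a laminin chain of basement membranes, and its mean went from 1113 in Control to 2880.3 in DCC-2036, a log2 fold change of 1.37. MLEC, a carbohydrate-binding protein of the endoplasmic reticulum, had a log2 fold change of 1.39 and SPHAR one of 1.43.

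JAG2, the other Jagged ligand (chr14:105140981-105168824, minus strand), gave 2405, 2198 and 2263 in Control culture, and 2361, 2339 and 2276 in treated culture. The DCC-2036 values all fell inside the Control range. The log2 fold change was 0.02 with a 95% interval from -0.20 to 0.25 (limma adjusted p of 0.836), and its sign changed in 2 settings: it was -0.17 with the libraries scaled to equal totals and -0.0049 without Control replicate 2. JAG2 overlaps AL512356.1, a gene on the same strand.

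DLL1, a Delta-like ligand at chr6:170282206-170306565 on the minus strand, was much less abundant per transcript length. Its values were 46.0, 57.2 and 54.3 with vehicle against 72.7, 92.9 and 79.8 with DCC-2036. Every DCC-2036 library lay above every Control library, and DCC-2036 replicate 2 was the highest of all 6. The log2 fold change was 0.63 ± 0.14 (standard error), with a limma adjusted p of 0.00865, close to the threshold. The call was lost without any 1 of the 3 Control libraries (0.54, 0.69 and 0.66 without replicates 1, 2 and 3) and without DCC-2036 replicate 2 (0.53) or 3 (0.64), with adjusted p from 0.0123 to 0.033, while it stayed without DCC-2036 replicate 1. It was also lost with equal totals (0.43) and with no filter on low values (adjusted p of 0.019), with a mean-variance trend, with the replicate number as a block, with transcripts summed, and where a log2 fold change of at least 1 was also asked. DLL1 overlaps FAM120B on the opposite strand, a gene with a mean value of 620.1, and reads from the shared part cannot be told apart without strand. It also overlaps AL078605.1, a noncoding gene on its own strand.

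The other Delta-like genes on the list of ligands were DLL4 and DLL3. DLL4, known from the sprouting endothelium and from intestinal crypts, had 27.2, 22.5 and 41.7 under vehicle and 20.8, 28.99 and 13.3 under DCC-2036. The groups overlapped, and the log2 fold change of -0.53 had a limma adjusted p of 0.194. DLL3 was under 2 in all 6 libraries and was not tested. Of the 4 tested ligands, 2 were called higher by limma (19.2% of all tested genes) and 0 lower (22.7%), also 0 lower at an unadjusted p under 0.05 (36.1%).

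Among the receptors, NOTCH2 (chr1:119911553-120069626, minus strand) was the most abundant per transcript length, with 2894, 2554 and 2742 in Control culture, and 3776, 4570.2 and 4332 in treated culture. The DCC-2036 libraries were all above the Control libraries, replicate 1 the least so. The group means were 2730.0 ± 170.4 and 4226 ± 408 (SD, n = 3 each), a ratio of 1.55. NOTCH2 rose by a log2 fold change of 0.63 ± 0.12 (standard error), with a limma adjusted p of 0.00437. This call was lost in 8 of 19 other settings, all with the same sign: without Control replicate 1, 2 or 3 (0.67, 0.58 and 0.63), without DCC-2036 replicate 2 (0.57), with equal totals (0.43, adjusted p of 0.0144), with no filter on low values (adjusted p of 0.0108), with the replicate number as a block, and where a log2 fold change of at least 1 was also asked. Over all 19 settings its adjusted p ran from 0.000769 to 0.0233.

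NOTCH2 has a near-identical partial copy, NOTCH2NL, and how the authors shared reads between them is not given, so both values are uncertain. The copy had 301, 237 and 203 with vehicle against 313, 413 and 443 with DCC-2036. Its log2 fold change of 0.66 (limma adjusted p of 0.0258) was not called at the threshold of 0.01, but was called without DCC-2036 replicate 1 (0.81, adjusted p of 0.00978) and at a threshold of 0.05. The copy was looked at because of its sequence likeness to NOTCH2, and it is on none of the lists.

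NOTCH1 (chr9:136494433-136545786, minus strand), a receptor of intestinal progenitor cells, gave 1687, 1452 and 1531 under vehicle and 1079, 866 and 499 under DCC-2036. NOTCH3 (chr19:15159038-15200981, minus strand), best known from vascular smooth muscle, gave 1199, 953 and 1117 in Control culture, and 708, 492 and 304 in treated culture. For both receptors the DCC-2036 libraries were all below the Control libraries, and they were spread far more widely than the Control libraries, with replicate 1 the highest and replicate 3 the lowest of their group. The mean of NOTCH1 was 1557 ± 119 in Control and 815 ± 294 in DCC-2036, and that of NOTCH3 was 1090 ± 125 and 501 ± 202 (SD, n = 3 each). The log2 fold change was -1.0 for NOTCH1 (95% interval from -1.67 to -0.33, limma adjusted p of 0.0201) and -1.20 for NOTCH3 (95% interval from -1.92 to -0.47, adjusted p of 0.0139), so neither was called.

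Leaving out either of the extreme DCC-2036 libraries brought both receptors past the threshold. Without DCC-2036 replicate 3 the log2 fold change was -0.68 for NOTCH1 (limma adjusted p of 0.00588) and -0.88 for NOTCH3 (0.00801). Without DCC-2036 replicate 1 it was -1.24 (0.00566) and -1.49 (0.0024). Over the 19 settings the adjusted p ran from 0.00566 to 0.0643 for NOTCH1 and up to 0.0485 for NOTCH3. The antisense gene AL592301.1 overlaps NOTCH1.

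NOTCH4, the remaining receptor gene and one known mainly from endothelium, was low, with 15.1, 16.9 and 4.39 with vehicle against 43.6, 45.6 and 62.8 with DCC-2036. Its values were higher in all 3 DCC-2036 libraries. It rose by a log2 fold change of 2.14 ± 0.46 (standard error), with a limma adjusted p of 0.00784. The call was lost without Control replicate 1 or 2 (2.38 and 2.45), without DCC-2036 replicate 1, 2 or 3 (2.23, 2.20 and 1.98), with equal totals (1.95) and in 4 further settings. Its lowest log2 fold changes, with the call kept, were 1.49 with pseudocount 10 and 1.59 without Control replicate 3, and the adjusted p ran from 0.00202 to 0.0238 over the settings. NOTCH4 shares its strand and part of its place with GPSM3, whose mean value was 21.3, so reads from the shared part cannot be told apart. The 4 tested receptors thus comprised 2 called higher (19.2% of all tested genes) and 0 called lower (22.7%), with 2 in each direction at an unadjusted p under 0.05 in limma, a threshold that 36.1% of all tested genes passed in the lower direction and 30.5% in the higher.

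HES1 is a basic helix-loop-helix repressor and a direct target of the Notch intracellular domain with RBPJ. It lies at chr3:194136145-194138732 on the plus strand. Its upstream window is shown because HES1 was the only called member on the list of direct targets, and because RBPJ binds the core TGGGAA. The 250 bases before the start in the RefSeq table (GRCh38.p14, chr3:194135898-194136147, plus strand) follow, with the matches to TGGGAA in capitals.
HES1: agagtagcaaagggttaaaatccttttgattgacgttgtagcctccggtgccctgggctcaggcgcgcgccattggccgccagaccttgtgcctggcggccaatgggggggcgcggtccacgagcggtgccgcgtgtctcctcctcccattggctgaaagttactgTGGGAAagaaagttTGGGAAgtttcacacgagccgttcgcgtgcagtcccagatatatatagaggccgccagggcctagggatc

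TGGGAA was searched on both strands. HES1 had 2 matches, starting at positions -84 and -70 before the start and both reading forward. Windows of 8 of the 10 members were searched, and HES1 was the only 1 of these with a match. Over 35116 RefSeq promoter windows of 250 bases, 20.8% held a match. HEY1 and DLL1 were not searched, so whether their windows hold a match is not known here. Of the other genes on the list of direct targets, 5 of 8 with a window had a match. Among these, HES4, HES5 and HEYL each had a forward match between positions -120 and -61, and these 60 bases are shown for comparison with HES1, a choice made after the matches were seen (minus strand, GRCh38.p14, at chr1:1000158-1000217, chr1:2530324-2530383 and chr1:39639704-39639763).
HES4: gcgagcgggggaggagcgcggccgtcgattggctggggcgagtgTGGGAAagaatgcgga
HES5: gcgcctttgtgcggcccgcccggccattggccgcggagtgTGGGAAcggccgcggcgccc
HEYL: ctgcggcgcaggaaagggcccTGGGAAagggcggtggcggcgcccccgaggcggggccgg
A match describes these letters only, and no binding was measured in these libraries.

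The values of HES1 were 291, 283 and 288 under vehicle and 429, 426 and 467 under DCC-2036. The Control libraries were almost level, and every DCC-2036 library was higher by far more than the spread within either group. The means were 287 ± 4.02 and 441 ± 22.3 (SD, n = 3 each), a ratio of 1.54. HES1 rose by a log2 fold change of 0.62 ± 0.09 (standard error), with a limma adjusted p of 0.00219. The call was lost without Control replicate 1, 2 or 3 (0.62, 0.60 and 0.62) and without DCC-2036 replicate 2 (0.64), with adjusted p from 0.0112 to 0.0145, and also with the replicate number as a block and where a log2 fold change of at least 1 was asked. Over all 19 settings the adjusted p ran from 0.00159 to 0.0145 with no change of sign.

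HEY1, a related repressor and target, was low, with 6.46, 11.4 and 17.7 in Control culture, and 17.7, 27.9 and 16.7 in treated culture. The groups overlapped, with Control replicate 3 inside the DCC-2036 range. The log2 fold change was 0.82 with a 95% interval from -0.05 to 1.69 (limma adjusted p of 0.0878), and it moved between 0.48 and 1.14 when 1 library was left out. At these levels a difference of this size was not told apart from the spread between libraries.

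NRARP, a feedback inhibitor that destabilizes the intracellular domain of Notch and is itself a target, lies at chr9:137300482-137302251 on the minus strand. It gave 235, 196 and 222 with vehicle against 110.2, 179 and 251 with DCC-2036. The DCC-2036 libraries covered the whole Control range, with replicate 1 the lowest of all 6 and replicate 3 the highest. The log2 fold change was -0.35 with a 95% interval from -1.05 to 0.35 (limma adjusted p of 0.323), and -0.04 without DCC-2036 replicate 1 and -0.63 without DCC-2036 replicate 3.

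The list of direct targets held 12 genes, of which 8 were tested. HES1 was called higher (12.5% of the 8, against 19.2% of all tested genes) and 0 were called lower by limma (22.7%), with 1 lower at an unadjusted p under 0.05 (36.1%). That gene was HEYL, a repressor of the HEY family, with 411, 445 and 463 under vehicle and 326, 222 and 172 under DCC-2036. Its groups did not overlap, but the log2 fold change of -0.92 had a limma adjusted p of 0.0139, and it was called without DCC-2036 replicate 1 (-1.16, adjusted p of 0.00117), with pseudocount 10, with a mean-variance trend and at a threshold of 0.05. HES6 had 558, 472 and 498 in Control culture, and 561, 615 and 669 in treated culture, and its log2 fold change of 0.27 was not called (adjusted p of 0.0872). The median over the 8 tested targets was 0.14, against -0.09 for all tested genes.

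The other targets gave no test or no call. HES2, HES4 and DTX1 overlapped between the groups. HES5, the classical target of the nervous system, was listed at 0 in all 3 Control libraries and at 4.15, 2.23 and 5.74 in DCC-2036, under the filter on low values, where zeros cannot be compared directly between the groups. HES7 and HEY2 were also under the filter. OLFM4, a marker of intestinal stem cells, was at 0 in all 6 libraries.

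ATOH1 (chr4:93828753-93830964, plus strand), the gene that HES1 represses, was near the floor of the table. It had 1.85, 0 and 7.55 with vehicle against 2.07, 1.10 and 1.21 with DCC-2036. The groups overlapped, and no difference was detectable at this level. Of the 14 genes on the list of ATOH1 and the secretory lineage, only 2 passed the filter on low values and both were called lower, as were 22.7% of all tested genes. Of the 12 under the filter, 4 had a higher mean with DCC-2036, 5 a lower mean and 3 were at 0 in all libraries. Those with a higher mean were REG4 (1.57 to 4.03, without overlap of the groups), and LYZ (6.04 to 15.5), CHGA (2.14 to 6.17) and MUC2 (4.24 to 7.0), which overlapped. Those with a lower mean were ATOH1, SPDEF (5.49 to 2.48), AGR2 (1.28 to 0.70), SPINK4 (1.23 to 1.05) and NEUROD1 (0.91 to 0), all with overlap of the groups. NEUROG3, INSM1 and TFF3 were at 0 in all 6 libraries.

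GFI1, a repressor downstream of ATOH1 in secretory progenitors, had 106, 117 and 151 under vehicle and 52.7, 35.7 and 19.5 under DCC-2036. FCGBP, a mucus protein of goblet cells, had 212, 194 and 179 in Control culture, and 68.5, 70.4 and 78.4 in treated culture. Neither gene overlapped between groups. GFI1 fell by 1.86 on the log2 scale (limma adjusted p of 0.00469). Its call was lost without Control replicate 1, 2 or 3 (-1.96, -1.90 and -1.71) and without DCC-2036 replicate 2 (-1.90). It was also lost with no filter on low values and with the replicate number as a block. FCGBP fell by 1.42 (adjusted p of 0.000314) and was called in all 19 other settings.

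Set per kilobase of transcript, the Control levels of the members ran from JAG2 (392 ± 18.1) through NOTCH2 (239.7 ± 14.96), HES1 (182 ± 2.55), NOTCH1 (167 ± 12.8), JAG1 (126 ± 5.81), NOTCH3 (126 ± 14.4) and NRARP (123 ± 11.1) to DLL1 (16.5 ± 1.84), HEY1 (5.16 ± 2.45) and ATOH1 (1.42 ± 1.78), all as mean ± SD over 3 libraries. Of neighbours in this order, the gap between HES1 and NOTCH1, the gaps among JAG1, NOTCH3 and NRARP, and that between HEY1 and ATOH1 were each smaller than the sum of the SDs. In DCC-2036 the level per kilobase was 399 ± 7.54 for JAG2, 371 ± 35.8 for NOTCH2, 321 ± 11.7 for JAG1 and 279 ± 14.2 for HES1, and JAG2 and NOTCH2 no longer differed beyond their spread. JAG1 stood at about the level of NOTCH3 in Control and close below NOTCH2 in DCC-2036, where NOTCH1 was at 87.5 ± 31.6 and NOTCH3 at 57.9 ± 23.3. Lengths were those of the matching GENCODE 29 transcripts. Whether the values already carry a correction for length is not given in the sources used here and was not tested. Before division by length, NOTCH2 was above JAG2 in Control, with means of 2730 and 2289.

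Of the 10 genes, 3 had more than 1 transcript in the table, and transcripts of a gene share reads. The shorter NOTCH2 transcript NM_001200001.1 had 915, 807 and 822 with vehicle against 1285, 1647 and 1530.3 with DCC-2036. With transcripts as features its log2 fold change was 0.80 (limma adjusted p of 0.00242), beside 0.63 for the leading transcript NM_024408.3. As a share of the leading transcript it was 31.6%, 31.6% and 29.97% with vehicle and 34.0%, 36.0% and 35.3% with DCC-2036, without overlap between the groups. The difference of these shares was not tested.

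The second JAG2 transcript, NM_145159.2, was at 96.9% ± 0.40 of the leading NM_002226.4 in Control and at 96.8% ± 0.89 in DCC-2036 (SD, n = 3 each). It had the same log2 fold change of 0.02. The 3 transcripts of HEY1 had log2 fold changes from 0.79 to 0.82, and 0 of them were called by limma, with 1 at an unadjusted p under 0.05. The other 7 genes each had a single transcript.

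Beyond the 10 genes, 67 further genes on lists by role were counted, called pathway genes below although they include markers of the secretory lineage. Of the 50 that were tested, 11 (22%) were called higher and 9 (18%) lower, near the shares of 19.2% and 22.7% over all tested genes. The median log2 fold change of the 50 was -0.01. Of the 9 called lower, 2 (GFI1 and FCGBP) came from the list of the secretory lineage. With 1 library left out the number called higher ran from 2 to 12 and the number called lower from 6 to 10, at 2 or 3 and 6 without any 1 of the Control libraries or without DCC-2036 replicate 2, and with the replicate number as a block they were 3 and 6. Over all genes the fits without these 4 libraries called 928 to 1054 higher and 1514 to 1708 lower, against 2442 and 2887 with all 6. Of these 20 called genes, 8 were called in each of the 19 other settings and the other 12 kept their sign but lost the call in at least 1 of them. Over all genes, 45.8% of the calls were in the higher direction, and 32.7% with libraries scaled to equal totals, a scaling that moved the median of all genes from -0.09 to -0.29.

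**Figure D3:**
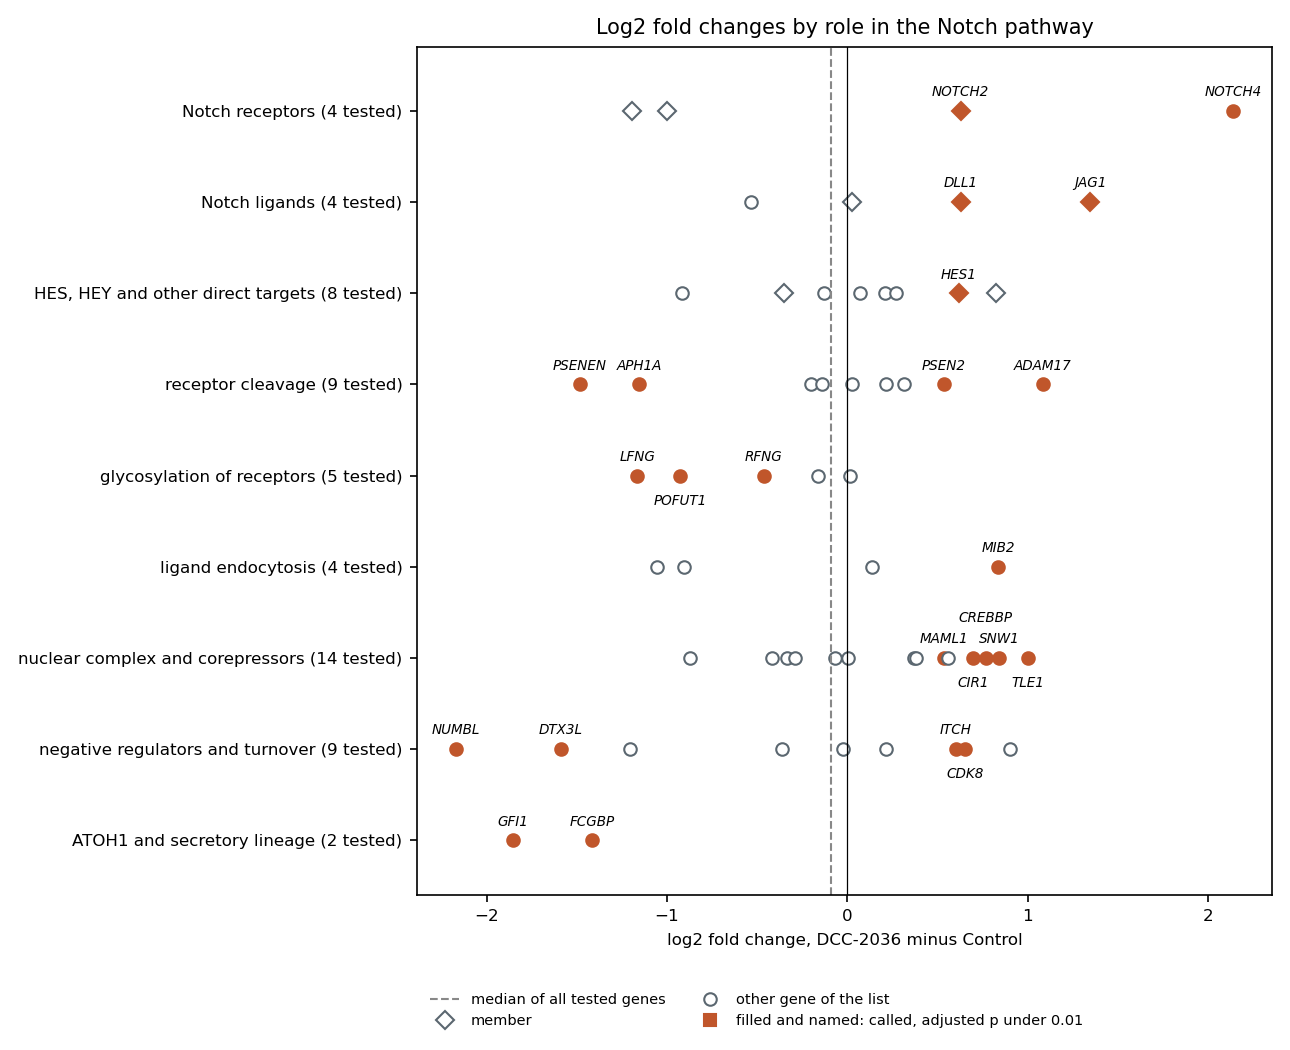
Log2 fold change (horizontal axis, DCC-2036 minus Control) of the tested genes on each list by role, with diamonds for the 9 tested members, circles for the others, filled and named where called, and a dashed line at the median of all tested genes (-0.09). Calls went both ways for receptor cleavage and for negative regulators, only lower for glycosylation (3 of 5) and the secretory lineage (2 of 2), and only higher for the ligands (2 of 4), the receptors (2 of 4) and the nuclear complex (5 of 14), with a single call each, also higher, for the direct targets (1 of 8) and ligand endocytosis (1 of 4), beside 19.2% higher and 22.7% lower over all tested genes.

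The list of receptor cleavage held 9 genes, all tested, with 2 (22.2%) called in each direction, against 19.2% higher and 22.7% lower over all tested genes. ADAM17, a protease that sheds membrane proteins and can cut Notch, had 882, 830 and 817 under vehicle and 1587, 1754 and 2045 under DCC-2036, and it rose by a log2 fold change of 1.08 (limma adjusted p of 0.000848). ADAM10, the main protease of ligand-bound Notch, overlapped between the groups and was not called. The other called genes encode parts of γ-secretase. PSENEN, the subunit that triggers maturation of presenilin, had 337, 415 and 488 in Control culture, and 149, 141 and 147 in treated culture, and fell by 1.48 (adjusted p of 0.00061). APH1A, a scaffold subunit, fell by 1.15 (adjusted p of 0.00104), from a mean of 1908 ± 239 to 856 ± 97.8 (SD over 3 libraries). PSEN2, a catalytic presenilin, rose by 0.53 (adjusted p of 0.00819). This call was lost without any 1 of the 3 Control libraries (0.49, 0.51 and 0.60 without replicates 1, 2 and 3). It was lost too without DCC-2036 replicate 2 (0.56) or 3 (0.47), with equal totals (0.34) and with no filter on low values. The replicate number as a block and a limit of 1 on the log2 fold change also removed it.

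Among 5 glycosylation genes, 0 were called higher (19.2% of all tested genes), also at an unadjusted p under 0.05 in limma (30.5%), and 3 were called lower (22.7%). LFNG, a fringe enzyme that extends O-fucose on Notch and shifts its preference between ligand families, had 225, 216 and 271 with vehicle against 101, 92.2 and 124 with DCC-2036. It fell by 1.16 on the log2 scale (adjusted p of 0.00134). POFUT1, the enzyme that adds O-fucose to Notch, had 1799, 1799 and 1959 under vehicle and 1143, 988 and 816 under DCC-2036, and fell by 0.93 (adjusted p of 0.00237). RFNG, another fringe enzyme, fell by 0.46 (adjusted p of 0.00784). The call of POFUT1 was lost without Control replicate 1, 2 or 3 (-0.95, -0.95 and -0.89) and without DCC-2036 replicate 2 (-0.94). That of RFNG was lost without the same libraries (-0.45, -0.52, -0.43 and -0.44), without DCC-2036 replicate 1 (-0.47), and with scaling by the median of ratios (-0.38) or the upper quartile (-0.44). RFNG also lost its call with no filter on low values. Neither POFUT1 nor RFNG was called with the replicate number as a block or with a limit of 1 on the log2 fold change.

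Of 4 genes of ligand endocytosis, MIB2, a ubiquitin ligase that acts on ligands, rose by 0.83 on the log2 scale (limma adjusted p of 0.00306), from a mean of 886 ± 110.4 to 1581 ± 190 (SD over 3 libraries). No other was called (1 of 4 higher, against 19.2% of all tested genes). At an unadjusted p under 0.05 limma gave 2 lower (36.1% of all tested genes), NEURL1 and NEURL1B, which were both called at an adjusted p under 0.05, and NEURL1B also without DCC-2036 replicate 3 (-0.61, adjusted p of 0.00997). MIB2 was not called without Control replicate 2 or 3 (0.78 and 0.79) or without DCC-2036 replicate 2 (0.87). Its call was also lost with the replicate number as a block and with a limit of 1 on the log2 fold change.

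The nuclear list held RBPJ with its coactivators and corepressors, and 5 of its 14 genes (35.7%) were called higher and 0 lower, against 19.2% and 22.7% of all tested genes, with 8 higher and 2 lower at an unadjusted p under 0.05 in limma (30.5% and 36.1% over all tested genes). TLE1, a Groucho corepressor that works with HES proteins, had 457, 396 and 418 in Control culture, and 819, 825 and 903 in treated culture, and rose by 1.00 on the log2 scale (adjusted p of 0.000668). SNW1, a splicing protein that binds the Notch intracellular domain, rose by 0.84 (adjusted p of 0.0024), and CREBBP, a histone acetyltransferase, by 0.77 (adjusted p of 0.00269). The remaining called genes were CIR1 (0.70) and the Mastermind gene MAML1 (0.54). RBPJ itself had 1210, 1082 and 1176 with vehicle against 1424, 1635 and 2122 with DCC-2036, without overlap, and a log2 fold change of 0.56 that was not called (adjusted p of 0.0237), but was called without DCC-2036 replicate 1 (0.69), with a mean-variance trend and at a threshold of 0.05. Without Control replicate 1, 2 or 3 or DCC-2036 replicate 2, the calls of SNW1 (0.81, 0.88, 0.84 and 0.83), CREBBP (0.79, 0.72, 0.79 and 0.73), CIR1 (0.74, 0.69, 0.66 and 0.69) and MAML1 (0.53, 0.54, 0.54 and 0.52) were lost. A limit of 1 on the log2 fold change removed each of these calls too. Those of CIR1 and MAML1 were also lost with equal totals (0.50 and 0.34) and with no filter on low values. With the replicate number as a block, CIR1, MAML1 and CREBBP were not called.

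Negative regulators went both ways, with 2 of 9 tested genes (22.2%) called higher and 2 lower, beside 19.2% and 22.7% of all tested genes. NUMBL, a relative of the Notch inhibitor NUMB, had 792, 915 and 926 under vehicle and 284, 188 and 136 under DCC-2036, and fell by 2.17 on the log2 scale (limma adjusted p of 0.000999). NUMB had a log2 fold change of 0.21 and was not called (adjusted p of 0.0758). DTX3L, a Deltex-like ubiquitin ligase, fell by 1.59 (adjusted p of 0.00177), from a mean of 159 ± 20.7 to 53.6 ± 17.3 (SD over 3 libraries). CDK8, a kinase that marks the intracellular domain for turnover, rose by 0.65 (adjusted p of 0.00211), and ITCH, a ubiquitin ligase of Notch, by 0.60 (adjusted p of 0.00504). The calls of CDK8 (0.66, 0.66, 0.63 and 0.61) and ITCH (0.62, 0.61, 0.57 and 0.62) were lost without Control replicate 1, 2 or 3 and without DCC-2036 replicate 2. Both were also lost with the replicate number as a block and with a limit of 1 on the log2 fold change. That of ITCH was lost too with equal totals (0.40) and with no filter on low values.

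**Figure D4:**
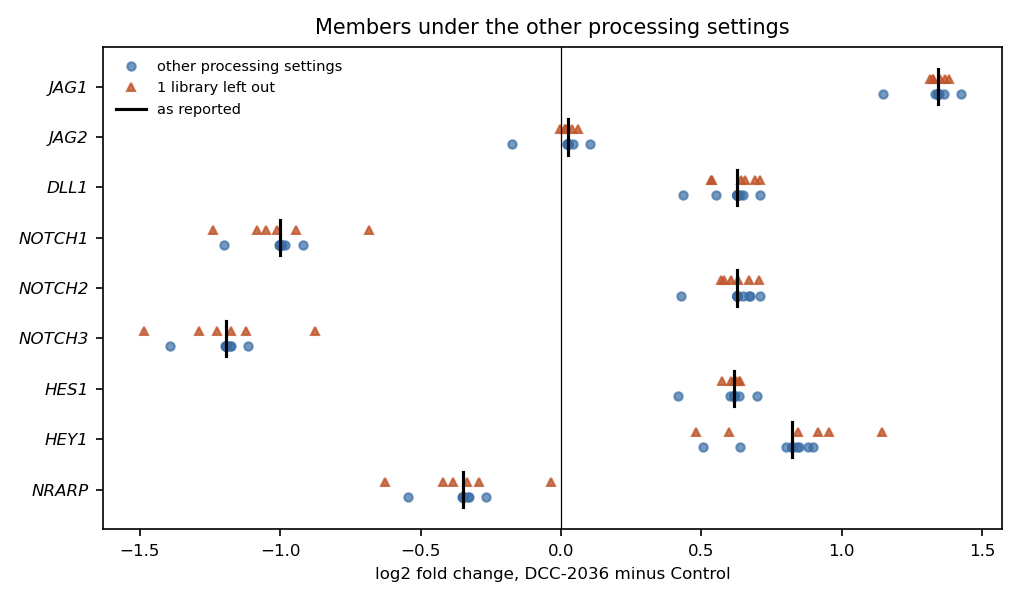
Log2 fold change of each tested member (horizontal axis, DCC-2036 minus Control) as reported (black line), with 1 library left out (triangles) and under the other processing settings (circles). JAG1 stays between 1.15 and 1.43, NOTCH1 between -1.24 and -0.68, and JAG2 is the only member whose points fall on both sides of 0.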

How the data were processed

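RNA was isolated with Trizol and made into Nextera XT libraries per the labels. Aligner, counting, build and strand use are not given in the sources used here. The authors deposited 1 normalized signal per RefSeq transcript and library. The signal was not whole, and its column totals (38997229 to 48023306) are not depth, which is unknown. Transcripts at exactly 0 numbered 7844 to 8078 per Control library and 5697 in each DCC-2036 library, so low members were read by value. Columns with the authors' own log2 fold change, p-value and q-value were left out. All 6 sample columns were mapped by their titles, and 0 other columns of sample values were left.

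The test was limma 3.58.1 in R 4.3.3, 2-sided, on log2(value + 1) of genes that reached 10 in 3 or more libraries, after the test had been checked on simulated data. Python 3.11.15 with pandas 2.3.3 was used for tables and matplotlib 3.10.9 for figures. Positions and lengths came from GENCODE 29, promoter windows from RefSeq. Named genes were all members and, for each list, up to 3 called genes per direction by size and any at 0 in all libraries. RBPJ, HEYL, HES5, HES6, DLL4, CIR1, MAML1, NEURL1, NEURL1B, ADAM10, NUMB, NOTCH2NL, REG4, LYZ, CHGA, MUC2, SPDEF, AGR2, SPINK4, NEUROD1, DLL3, HES2, HES4, DTX1, HES7 and HEY2 were named beyond this rule after their values were seen. The members and lists were chosen with earlier results of these data known. Alternatives covered scaling, filter, pseudocount, trend, replicate block, transcript summary, threshold and each library left out.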

Additional observations from a re-analysis of the deposited data

How the results depend on the processing

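JAG1 kept its call and direction under all 19 alternatives. NOTCH2, DLL1 and HES1 kept their direction in all 19 and lost their call in 8, 11 and 6. With libraries scaled to equal totals, 2 members were called higher, 6 pathway genes and 1669 of all genes were called higher, 3440 of all genes lower, and JAG2 was at -0.17. With no filter on low values, where more genes were tested, 2 members, 7 pathway genes and 1749 of all genes were called higher and 2154 of all genes lower. With a log2 fold change of at least 1 also asked, 1 member, 3 pathway genes and 944 of all genes were called higher, and 0 members, 7 pathway genes and 1930 of all genes lower. With pseudocount 10, 1 member (NOTCH3) was called lower, and with a mean-variance trend or an adjusted p under 0.05 there were 2 (NOTCH1 and NOTCH3). The latter gave 16 pathway genes called higher and 16 lower, with 3630 and 4290 of all genes.

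With 1 library left out, members called higher numbered 1 to 4 and lower 0 to 2, pathway genes called higher 2 to 12, all genes called higher 928 to 2675 and lower 1514 to 3507, and JAG2 ran from -0.0049 to 0.0599. These fits have fewer samples, and the cause was not tested further.

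No pairing by replicate number was seen: deviations of same-numbered libraries correlated at 0.081, -0.035 and -0.003 across genes. Between a Control and a DCC-2036 library of different numbers the correlations ran from -0.060 to 0.091. These values cannot show whether same-numbered cultures were handled together. With the replicate number as a block, 1 member, 3 pathway genes and 1202 of all genes were called higher and 1909 of all genes lower. Depth is unknown, so no counting error could be given for low genes such as ATOH1 and HEY1.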
